A study of Arabidopsis thaliana with 64 samples.

Results

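The sites described here are 1241 places in the Arabidopsis thaliana genome where a MYC-tagged ELF3 protein was listed as bound in both replicates at 17 °C and, after a shift to 27 °C, in the line that also overexpresses ELF4 but not in the line without it. They were chosen by their peak calls: a peak of the first 17 °C replicate on chromosomes 1 to 5 that overlapped, by at least 1 bp, a peak of the second 17 °C replicate and a peak of the ELF4-ox list at 27 °C, and that overlapped no peak of the ELF3-MYC list at 27 °C and no peak of the 2 INPUT lists. Presence in those lists is therefore the definition of the sites and not a result. The first 17 °C replicate held 43412 peaks on these chromosomes, 32422 of them lay off every INPUT peak, and 6369 of those were shared with the second replicate.

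ELF3, ELF4 and the DNA-binding protein LUX form the evening complex, which represses clock and growth genes around dusk and through the night. ELF3 is the scaffold of the complex and carries a prion-like domain, and its action weakens as temperature rises. ELF4 binds ELF3 and strengthens the complex. Well-known targets are PIF4 and PIF5, which encode growth-promoting transcription factors, and genes of the clock itself, LUX among them.

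The ChIP samples used to choose the sites were seedlings grown 10 days in short days (8 h light, 16 h dark) at 17 °C and moved to 27 °C for 2 h at ZT8, or left at 17 °C. At 27 °C the lines were the cross of ELF3-MYC elf3-1 with ELF4-ox (the ELF4-ox lists here) and ELF3pro::ELF3-MYC elf3-1 without it, with 1 list each. At 17 °C ELF3pro::ELF3-MYC elf3-1 had 2 lists, both used, and the cross had 1 list, which the rule did not use. Both lines express tagged ELF3 from the ELF3 promoter in the elf3-1 mutant, so the mutation is shared by all these lists. The sample labelled ELF3-MYC 27C replicate 1 was not used here. With 1 list for each line at 27 °C there is no replicate check of the 27 °C difference. The number that opens the sample title also differs between both 27 °C lists, 189 with ELF4-ox and 192 without, so the line and whatever that number stands for cannot be told apart. The 2 INPUT lists, labelled 17 and 27 °C with no shift given, carry the number 176.

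Most of the sites were weak peaks. The weakest peak of the first 17 °C replicate had a −log10 p of 1.02, and 263 of the 1241 sites (21.2%) had a q-value under 0.05 in the first 17 °C replicate. In the ELF4-ox 27C list 103 of the sites had a q under 0.05, and 30 sites had it in all 3 lists they share. The median site had a fold enrichment of 2.22 over local background, a −log10 p of 2.58 and a width of 226 bp. The sites found in neither 27 °C list had the same median fold and −log10 p, and a median width of 189 bp. The ELF4-ox 27C list was itself the stronger of the pair. It held 41138 peaks, 1684 of them of q under 0.05, against 50350 and 579 in the ELF3-MYC 27C list, and its highest −log10 p was 204, against 46.0 in the ELF3-MYC 27C list. These values depend on depth, which is unknown here, and their part in which sites the rule found was not tested.

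Many sites lay close to the edges of the rule. The smallest overlap with an ELF4-ox 27C peak was 1 bp, 51 sites overlapped one by under 20 bp, and the median overlap was 141 bp. On the other side, 201 sites had an ELF3-MYC 27C peak within 100 bp without touching it, and the median gap to the nearest such peak was 472 bp. Sites in neither list included 227 with an ELF4-ox 27C peak within 100 bp.

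Of the 6369 shared sites, the 1241 described here made up 19.5%. A further 771 (12.1%) were in both 27 °C lists, 1555 (24.4%) were in the ELF3-MYC 27C list only and 2802 (44.0%) were in neither. The mirror class, listed at 27 °C without ELF4-ox and not with it, was thus the larger of the opposed pair over sites of any strength. Rank and class both come from lists the rule used, so their relation describes the choice of sites and is not a test. Within that choice the order turned with strength. Among peaks ranked 1 to 100 at 17 °C the described sites numbered 5 and the mirror class 0, and among ranks 101 to 200 they numbered 17 and 3. Among ranks 201 to 500 there were 34 and 16, and beyond rank 10000 there were 798 and 1137. The first 17 °C replicate shared title number 189 with the ELF4-ox 27C list. That list covered 10.2 Mb, against 7.45 Mb for the ELF3-MYC 27C list. The part of title number and coverage in this order was not tested.

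**Figure D1:**
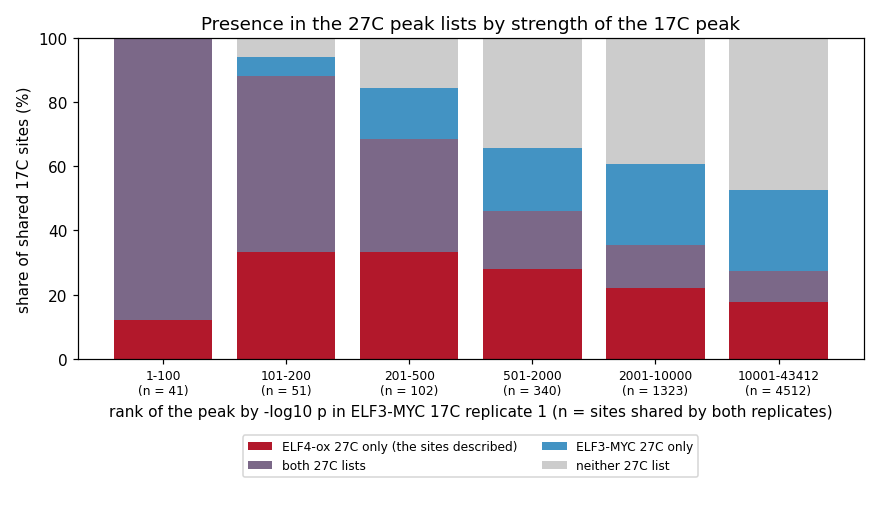
Shared 17 °C sites by the rank of their peak in the first 17 °C replicate (x axis, strongest left, with the number of sites) and the share of them in each 27 °C class (y axis, percent, stacked). The described class, at the bottom, took 33.3% of sites ranked 101 to 200 and 17.7% beyond rank 10000, while the class in both lists took most of the strongest sites.

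Peaks of lists that the rule did not use were set against the sites. The ELF4-ox list at 17 °C, from the same line and with the same title number as the 27 °C list that chose the sites, had a peak at 603 of the 1241 sites (48.6%, exact binomial interval 45.8 to 51.4%). It had one at 25.6% of the sites in neither 27 °C list, at 59.1% of the sites in both, at 28.6% of the mirror class and at 32.2% of all 32422 peaks off INPUT. The intervals cover counting error only, and sites of one list are not replicates. The shares were also higher than those of the sites in neither list at like strength and width. Among sites with q of 0.05 or more they were 44.9% and 24.3%, beside 30.9% of the peaks off INPUT in that range. Between q 0.05 and 1e-05 they were 59.7% and 36.7%, beside 43.1%, and from 300 to under 600 bp of width they were 59.2% and 38.2%, beside 46.3%. Among the strongest peaks, of q under 1e-05, the share was 88.0% of 25 described sites and 85.1% of 121 peaks off INPUT. It was 92.9% of 70 sites in both, 60.0% of 5 in neither list and 62.5% of 8 in the mirror class. The classes of 5 and 8 hold few sites.

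The other ELF3 lines with lists were ELF3-ox, BdELF3-ox, StELF3-ox, ELF3pro::BdELF3, ELF3pro::ELF3-Q15, ELF3pro::ELF3-Q20 and ELF3pro::ELF3-BdPrD. Most gave the same order, though the lists differ in their number of peaks. In 19 of 19 unused lists the described sites had a peak more often than all peaks off INPUT, in 18 more often than the sites in neither list, and in 4 more often than the sites in both. BdELF3-ox plants carry the Brachypodium protein, and their list had a peak at 46.8% of the sites at 27 °C, against 35.4% of all peaks off INPUT, and at 43.6% at 22 °C, against 21.9%. StELF3-ox, with the potato protein, had one at 30.2% in its first list labelled 22 °C, against 13.3%, and at 40.8% in its second, against 20.8%. The deposited name of the second gives 27 °C, so its temperature is in doubt. The lowest share was in the first ELF3-ox 27 °C list, 15.3% against 13.3%. The exception to the order was ELF3pro::BdELF3 at 17 °C, with 37.0% of the described sites, 37.9% of the sites in neither list and 25.6% of all peaks off INPUT. A median site was in 5 of the 19 lists, 300 sites (24.2%) were in 10 or more, and 64 (5.16%) were in none. For all peaks off INPUT the median was 3, with 9.24% in 10 or more and 12.9% in none, and for sites in both 27 °C lists it was 6, with 25.03% in 10 or more.

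**Figure D2:**
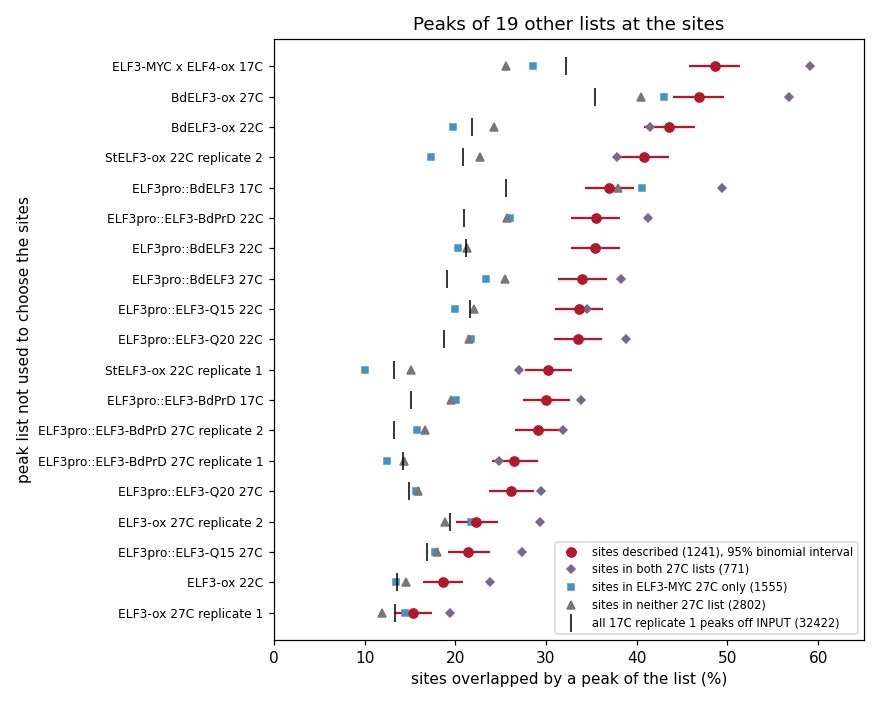
Share of sites with an overlapping peak (x axis, percent) in each of 19 lists that did not choose them (y axis), for the described sites with their 95% binomial interval and for 4 comparison sets. The described sites sit right of the all-peaks tick in all 19 lists and near the sites found in both 27 °C lists in many.

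The sites lay nearer to gene ends than the other classes. A gene end stood within 1000 bp of the summit at 934 sites (75.3%), compared with 66.5% of sites in neither list, 72.5% of sites in both, 60.4% of the mirror class and 70.8% of all peaks off INPUT. The summit fell inside a gene at 79.4% of the described sites, against 87.5% in neither, 83.4% in both, 92.9% in the mirror class and 78.8% of all peaks off INPUT. The gene table used gives no strand, so starts and stops of genes were not told apart.

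The strongest of the sites stood beside a purine transporter gene. At chr4:10078058-10078733 (TAIR10, as all positions here), near PUP10, the peak had a −log10 p of 7.56 in ELF4-ox at 27 °C and 4.48 in ELF4-ox at 17 °C, and of 24.9 and 20.7 in both 17 °C replicates. The nearest ELF3-MYC peak at 27 °C was 77 bp away. The site therefore lay close to the limit of the rule.

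The second, chr1:11215848-11216349, stood near PSAF, a subunit of photosystem I, and the gene AT1G31335 beside it. Its −log10 p was 9.84 and 7.40 in ELF4-ox at 27 and 17 °C, and 22.9 and 51.7 in the 17 °C replicates. It was in 17 of the 19 other lists, and the nearest ELF3-MYC 27C peak lay 421 bp away. A weaker peak near PSAF, at chr1:11215408-11215750, was in both 27 °C lists.

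Of the 10 strongest sites the one farthest from any ELF3-MYC 27C peak was chr5:6456475-6457061, near ECR1, which encodes a subunit of the enzyme that activates the ubiquitin-like RUB protein. The −log10 p there was 17.8 and 11.003 in ELF4-ox at 27 and 17 °C and 12.4 and 49.6 in the 17 °C replicates. The nearest ELF3-MYC 27C peak lay 3301 bp away, and 17 of the 19 other lists had a peak there. The gene with the end nearest to that summit was AT5G19190. Beside CYP707A2, whose enzyme breaks down abscisic acid, the site at chr2:12494103-12494707 was also in 17 of 19 lists, and its −log10 p was 7.04 and 5.56 in ELF4-ox and 16.1 and 20.3 in the 17 °C replicates.

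A relative of ELF4 lay near one of them too, though an end of AT1G72640 lay nearer. The site at chr1:27345655-27346292, near ELF4-L2, had a −log10 p of 8.23 and 11.4 in ELF4-ox at 27 and 17 °C and of 18.2 and 15.4 in the 17 °C replicates, with an ELF3-MYC 27C peak 142 bp away. The other 5 of the 10 lay near ATL5 (a ubiquitin ligase family gene), AT4G09750, SPS2F (sucrose phosphate synthase), LOS2 (enolase) and AT3G42570. An end of AT3G62695 lay nearer than ATL5, one of AT4G09745 nearer than AT4G09750, and one of AT2G36540 nearer than LOS2. Every one of the 10 had a peak in the ELF4-ox 17C list, with a −log10 p of 1.82 near SPS2F at the low end, as had 85.1% of all peaks off INPUT with q under 1e-05. With q under 1e-05 in all 3 lists that chose the sites, 6 sites remained: those near PSAF, ATL5, AT3G42570 and ECR1, and sites near AT1G05097 and AT3G24830.

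**Figure D3:**
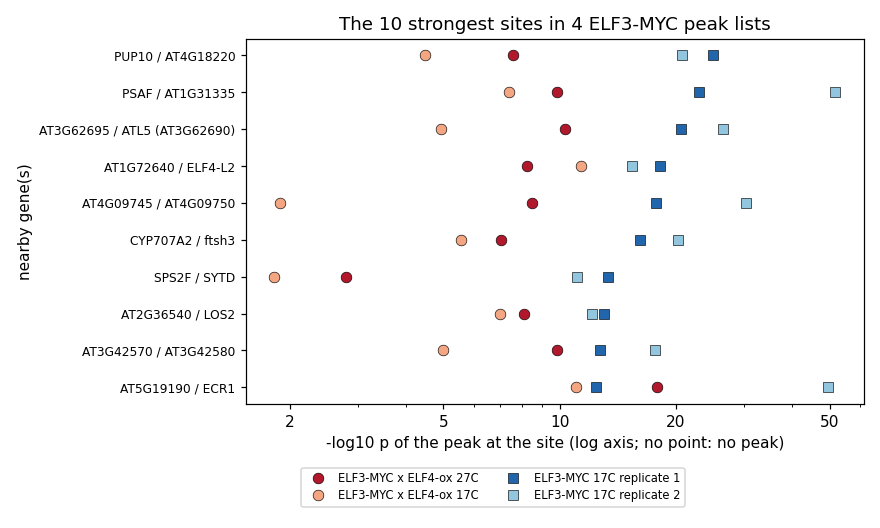
The −log10 p (x axis, log scale) of the peak at each of the 10 strongest sites (y axis, by nearby gene) in the ELF4-ox lists at 27 and 17 °C and in both ELF3-MYC replicates at 17 °C. All 10 have a point in all 4 lists, and the site near ECR1 has the highest ELF4-ox 27C value of the 10, 17.8.

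Evening complex genes had sites in the set, but beside stronger peaks that are not in it. Of the listed complex members 2 of 4, ELF4 and LUX, had a site near a gene end, and of 10 listed targets 4 had one, PIF4, PIF5, LUX and ELF4. The share was 4 of 19 for clock genes, 4 of 24 for PIF and light genes, 3 of 8 for green tissue markers and 0 of 8 for root markers, while 3.96% of all genes in the table lay near a site. The described site of PIF5, chr3:21828307-21828770, had a −log10 p of 5.37 in the first 17 °C replicate, whereas the main PIF5 peak, at chr3:21829685-21832275, had 83.4. For LUX the values were 3.61 and 96.7, and for PIF4 they were 3.77 at the stronger of a pair of sites and 108 at the main peak. Those 3 main peaks overlapped INPUT peaks and were listed in both 27 °C lists. The INPUT peaks were mostly weak: 0 of 12033 at 17 °C and 30 of 50340 at 27 °C had a q under 0.05. Of the 100 strongest peaks of the first 17 °C replicate 42 lay off INPUT, so the rule left out many strong peaks.

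Other clock and light genes were alike. CDF2, a DOF transcription factor gene, had a described site of −log10 p 3.35 beside a peak of 50.7 in both 27 °C lists. LNK2 had 3.41 beside 26.7, and CDF1 had 2.20 beside 18.5, each main peak overlapping an INPUT peak. At LNK2 and CDF2 the overlapping peak of the second 17 °C replicate had its summit 759 and 661 bp from the described one, so it was the edge of the main peak that matched.

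At a few genes the described site was the strongest shared peak. The site near PSBO1, a protein of the oxygen-evolving complex, at chr5:26568409-26568919, had a −log10 p of 10.3 in the first 17 °C replicate, 10.9 in the second and 3.17 in ELF4-ox at 27 °C, and 17 of the 19 other lists had a peak there. The site near ELF4 itself, at chr2:16734969-16735281, had 5.004 and 7.13 in the 17 °C replicates and 2.98 in ELF4-ox at 27 °C, with no peak in ELF4-ox at 17 °C. Near FT, the flowering signal, a site at chr1:24331085-24331567 had 3.65 and 11.96 in the 17 °C replicates and 3.91 in ELF4-ox at 27 °C, and an ELF3-MYC 27C peak lay 127 bp away.

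RNA of the same study allowed genes near the sites to be followed in other plants. The 38 libraries came from pooled seedlings grown 10 days at 12, 22 or 27 °C, not from the plants used for ChIP, and the growth temperature of 17 °C was not among them. The lines compared were elf3-1 X ELF4-ox, elf3-1, ELF4-ox and elf4-2 with 2 libraries each, elf4-2 X ELF3-ox with 2, ELF3-ox with 3 and wild-type Col-0 with 3. The other lines, which entered the fit only, were ELF3pro::ELF3-Q0 #2 and #15, ELF3pro::ELF3-Q7 #6 and #17, ELF3pro::ELF3-Q21 #7 and #23, BdELF3-ox, StELF3-ox and ELF3pro::BdELF3. Gene counts ranged from 4381010 to 25649275 per library. There were 1502 genes with an end within 1000 bp of a site, and 1111 of these passed the minimum of 1 CPM in 3 libraries, where 19587 loci passed in all. Levels are CPM, TMM-scaled counts of transcript 3' ends relative to library size. The labels do not say whether replicates were separate cultures, so p-values measure the spread between these samples. Fewer cells of a type and less RNA per cell cannot be told apart in them.

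ELF4 RNA was 95.4 and 110 CPM in ELF4-ox, against 59.8, 67.4 and 67.4 CPM in Col-0. Both ELF4-ox libraries were higher than every Col-0 library, but the log2 change of 0.70 (SE 0.27) had an edgeR adjusted p of 1. In elf4-2, ELF4 was at 32.0 and 38.1 CPM, below every Col-0 library, with a log2 change of −0.86 (SE 0.27) and an edgeR adjusted p of 0.544. ELF3 RNA was at 17.5 and 26.6 CPM in elf3-1 against 17.2, 22.4 and 29.9 CPM in Col-0. The count of the elf3-1 transcript does not show whether a working protein is made. Counts of 3' ends also need not include the RNA of a transgene, whose 3' end the labels do not give. The ELF4 count in ELF4-ox may therefore not measure the overexpression.

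Genes near the sites were called higher in elf3-1 more often than the average gene. Of the 1111 tested, 22 (1.98%) were higher and 1 was lower in elf3-1 than in Col-0, where 0.403% of all genes tested were called higher and 0.296% lower (edgeR quasi-likelihood test, adjusted p under 0.05). The median log2 change was 0.01 over these genes and −0.03 over all genes. Among genes near sites in both 27 °C lists 2.77% were called higher, and near sites in neither list 0.669%. A gene could count in several classes.

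COL5, a CONSTANS-like gene, had the smallest p. It was at 83.3 and 93.0 CPM in elf3-1, against 10.1, 12.6 and 14.2 CPM in Col-0, a log2 change of 3.21 (SE 0.44, edgeR adjusted p = 0.000891). PIF5 stood at 118 and 134 CPM in elf3-1 against 19.4, 26.4 and 36.9 CPM in Col-0, a log2 change of 2.65 (SE 0.44, edgeR adjusted p = 0.00481). The groups did not overlap for either gene.

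Clock and light genes were among the rest. LUX was at 102 and 118 CPM in elf3-1 and 26.2, 60.7 and 65.4 CPM in Col-0, a log2 change of 1.55 (SE 0.34, edgeR adjusted p = 0.0354). CDF2 was at 42.8 and 52.2 CPM in elf3-1 and 4.88, 13.1 and 21.3 CPM in Col-0, a log2 change of 2.12 (SE 0.44, edgeR adjusted p = 0.0243). Also called higher were CH1, whose enzyme makes chlorophyll b, with a log2 change of 2.21, and PAR1, a repressor of shade growth, with 1.82. So were PKS4, a phytochrome substrate, with 1.71, the growth peptide gene RTFL21 with 1.83, and AT4G35720 with 2.88. The abscisic acid factor gene ABF3 was called with 0.98, though its groups overlapped. It was at 48.8 and 89.2 CPM in elf3-1 and 26.5, 59.1 and 80.3 CPM in Col-0.

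A single gene was lower. GRP7, a clock-controlled RNA-binding protein, was at 6569 and 8092 CPM in elf3-1, against 21861, 29342 and 30201 CPM in Col-0, and fell by 1.97 on the log2 scale (SE 0.33, edgeR adjusted p = 0.00506). PIF4 was at 37.99 and 43.0 CPM in elf3-1 and 4.51, 11.4 and 22.5 CPM in Col-0, with no overlap, and was not called (log2 change 2.06, SE 0.76, edgeR adjusted p = 0.218).

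The number of these calls, 23 in all, rests on single libraries. It was 57 without 2 libraries of other lines low in root markers, a fit whose calls over all genes are not given here. The rise can therefore not be read as particular to genes near the sites. DESeq2 called 37, of which 25 were higher and 12 lower, where over all genes it called 170 higher and 163 lower. It was 8 without the 27 °C and 0 without the 22 °C library of elf3-1, and 14, 7 and 9 without each of the Col-0 libraries in turn. Calls over all genes were also fewer with any 1 of these libraries left out, though in at least 1 of these fits only slightly. Whether the fall was larger near the sites was not tested. Summed CPM of 8 root markers, none of them at 0, also separated the groups. It was 111 and 186 in elf3-1 against 62.6 to 83.6 in Col-0, and its part in the calls was not tested.

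The same mutation was also compared in the ELF4-ox background. Of the 1111 genes 24 (2.16%) were higher and 2 lower in elf3-1 X ELF4-ox than in ELF4-ox, beside 0.449% and 0.235% of all genes, and DESeq2 called 34 higher and 2 lower, beside 176 and 75 of all genes. Near sites in both 27 °C lists the share called higher was 3.35%. The comparison shares no library with that of elf3-1 and Col-0, though both come from 1 fit and concern the same mutation. Near the sites 13 genes were called higher in both, 54.2% of this list and 59.1% of the other. The overlap over all genes is not given here, so it cannot be read as particular to genes near the sites.

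PKS4 had the smallest p. It was at 32.5 and 62.5 CPM in elf3-1 X ELF4-ox, against 2.02 and 5.41 CPM in ELF4-ox, a log2 change of 3.75 (SE 0.40, edgeR adjusted p = 5.4e-05). LUX was at 107 and 117 CPM in elf3-1 X ELF4-ox against 15.6 and 22.6 CPM in ELF4-ox, a log2 change of 2.57 (SE 0.38, edgeR adjusted p = 0.00166). PIF5 was at 100.2 and 121 CPM in elf3-1 X ELF4-ox, against 9.58 and 14.1 CPM in ELF4-ox. No library of the cross overlapped one of ELF4-ox for these genes.

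Other called genes included LHCB2.1 and RR5. LHCB2.1, a light-harvesting protein of photosystem II with close copies among which reads could be split, was at 176 and 197 CPM in elf3-1 X ELF4-ox and 12.0 and 23.1 CPM in ELF4-ox, a log2 change of 3.39 (SE 0.73, edgeR adjusted p = 0.027). RR5, a response regulator induced by cytokinin, was at 17.7 and 27.6 CPM in elf3-1 X ELF4-ox and 6.70 and 9.47 CPM in ELF4-ox, a log2 change of 1.48 (edgeR adjusted p = 0.0107). GRP7 was again lower, by 1.47 on the log2 scale (SE 0.32, edgeR adjusted p = 0.0314), and so was ASN2, an asparagine synthetase gene, whose log2 change was −1.15 (edgeR adjusted p = 0.0437).

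These calls also rest on few libraries. Calls over all genes without the 2 libraries low in root markers are not given here, so a rise cannot be read as particular to these genes. The number of calls near the sites, 26 in all, was 42 in that fit. It was 1 without the ELF4-ox library at 27 °C, 5 without that at 22 °C, and 9 and 5 without the 27 and 22 °C libraries of the cross. Here too the calls over all genes fell with any 1 of these libraries left out. Root markers summed to 113 and 186 CPM in elf3-1 X ELF4-ox and 52.7 and 104 CPM in ELF4-ox. Their part in the calls was not tested.

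**Figure D4:**
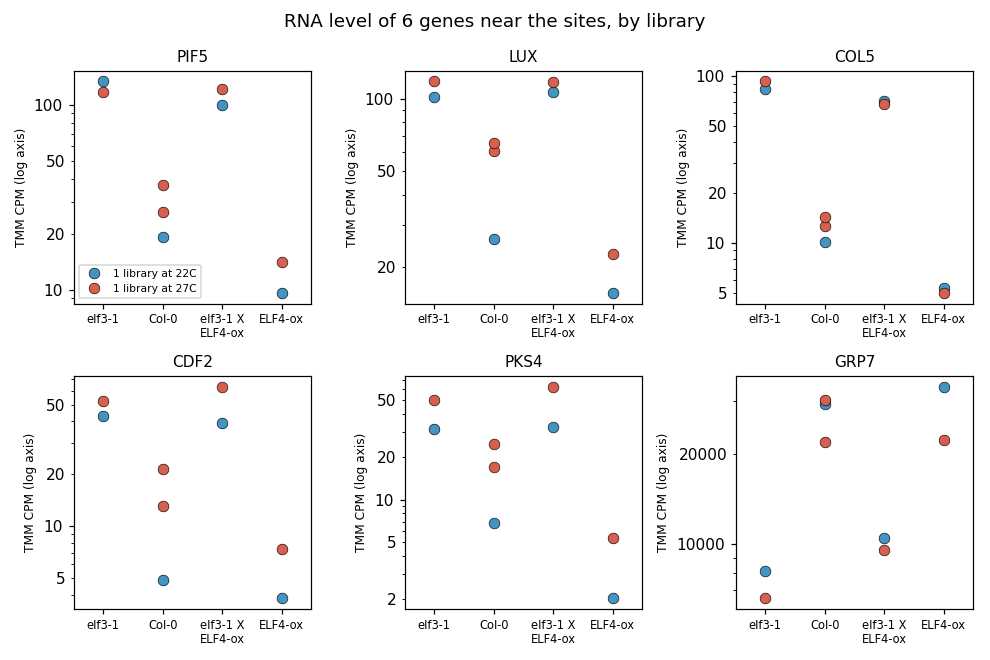
CPM (y axes, log scale) of 6 genes near the sites in each library of 4 lines (x axes), coloured by growth temperature. PIF5, LUX, COL5, CDF2 and PKS4 are higher, and GRP7 lower, in every library with elf3-1 than in every library of the matching line without it.

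Most of the called genes lay near a second shared 17 °C peak as well. Of the 1502 genes 975 had no shared peak nearby other than a described site, with INPUT-overlapping peaks counted, and 696 of them were tested. In elf3-1 against Col-0 6 of these (0.862%) were called higher and 0 lower, and in elf3-1 X ELF4-ox against ELF4-ox 3 (0.431%) were higher and 0 lower, beside 0.403% and 0.449% of all genes. At an unadjusted p under 0.05 edgeR counted 107 (15.4%) and 66 (9.48%) of the 696 in either direction, beside 13.9% and 7.88% of all genes. DESeq2 called 7 of the 696 higher in each comparison and 6 and 0 lower, where over all 19587 genes it called 170 and 176 higher and 163 and 75 lower. This split was chosen after the data were seen.

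**Figure D5:**
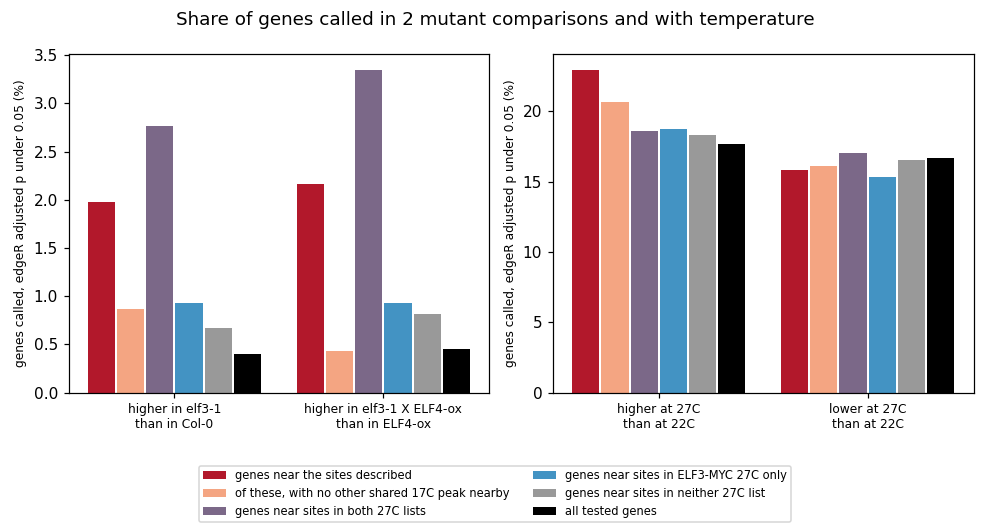
Percent of tested genes called at an edgeR adjusted p under 0.05 (y axes; the panels have different scales) near the described sites, near those with no other shared peak, near the other classes and over all genes. Bars for genes with no other shared peak stand at 0.862% and 0.431% in the mutant comparisons, beside 1.98% and 2.16% for all genes near the sites.

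No gene near the sites passed the threshold in ELF4-ox against Col-0. The ELF4-ox libraries had title numbers 177 and 178, and those of Col-0 had 181 and 184. Line and title number are therefore told apart only through the other lines in the fit. In ELF4-ox against Col-0, edgeR and DESeq2 called 0 of the 1111, and edgeR called 0.00511% of all genes higher and 0% lower. At an unadjusted p under 0.05 there were 47 genes near the sites (4.23%) against 3.32% of all genes. The smallest p among those at 5 CPM or more belonged to PKS4, with a log2 change of −1.92 (SE 0.44, edgeR adjusted p = 0.647).

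Loss of ELF4 gave few calls. The elf4-2 libraries also shared no title number with Col-0, so the same limit holds. In elf4-2 against Col-0, edgeR called 0 of the 1111 and DESeq2 called 3 higher and 1 lower, where edgeR called 0.0306% of all genes higher and 0.0511% lower and DESeq2 called 20 higher and 24 lower. At an unadjusted p under 0.05 there were 87 (7.83%), against 6.09% of all genes. PIF5 was at 62.5 and 110 CPM in elf4-2 and 19.4, 26.4 and 36.9 CPM in Col-0, with no overlap and a log2 change of 2.35 (SE 0.53, edgeR adjusted p = 0.117).

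In elf4-2 X ELF3-ox against ELF3-ox 2 genes were called higher and 0 lower, beside 0.0255% and 0.0153% of all genes, and DESeq2 called 8 higher and 1 lower, beside 23 and 9 of all genes. The edgeR calls were LUX and PIF5. LUX was at 90.6 and 107 CPM in elf4-2 X ELF3-ox, against 9.08, 17.3 and 32.7 CPM in ELF3-ox, a log2 change of 2.33 (SE 0.34, edgeR adjusted p = 0.0123). PIF5 was at 45.0 and 109 CPM in elf4-2 X ELF3-ox, against 11.6, 13.3 and 18.9 CPM in ELF3-ox, a log2 change of 2.34 (SE 0.43, edgeR adjusted p = 0.0383). Without any 1 of the 5 libraries of these lines 0 or 1 of the genes was called, and 0 without the title number term.

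The study's design also lets the 27 °C response of ELF4-ox be set against that of Col-0. For this difference edgeR and DESeq2 called 0 of the 1111 genes, and edgeR called 0% of all genes. At an unadjusted p under 0.05 there were 27 (2.43%), against 2.74% of all genes. ELF4-ox had 1 library at each temperature, with title number 178 at 22 °C and 177 at 27 °C. Its temperatures and title numbers are told apart only through the other lines in the fit.

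Over all lines, more genes near the sites were higher than lower after growth at 27 °C rather than 22 °C. Of the 1111, 255 (23.0%) were higher at 27 °C and 176 (15.8%) lower, beside 17.7% and 16.7% of all genes. Near sites in neither 27 °C list 18.4% were higher and 16.5% lower, and near sites in both 18.6% and 17.0%. In the 4 lines elf3-1 X ELF4-ox, elf3-1, ELF4-ox and Col-0 alone, 63 were called in either direction instead of 431. The directions of those 63 and the calls over all genes in that fit are not given here. Whether the excess of higher genes held in these lines is therefore not shown. In the fit of all lines the median log2 change was 0.05 near the sites and 0.01 over all genes.

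RTFL21 had the smallest p of the genes higher at 27 °C. It had 7.42, 26.5 and 70.6 CPM as its lowest, median and highest value in 20 libraries at 27 °C, against 2.18, 6.31 and 38.8 CPM in 15 libraries at 22 °C, a log2 change of 2.1 (SE 0.16, edgeR adjusted p = 1.17e-08). HSP90.1, a heat shock chaperone, had 6.60, 27.4 and 34.9 CPM at 27 °C against 5.17, 8.47 and 12.5 CPM at 22 °C, a log2 change of 1.72 (SE 0.16, edgeR adjusted p = 1.85e-07). ABF3 had 29.8, 46.7 and 94.6 CPM at 27 °C and 12.6, 20.97 and 48.8 CPM at 22 °C, a log2 change of 0.97. For HSP90.1, 17 of the 20 libraries at 27 °C were higher than all at 22 °C, and the ranges of RTFL21 overlapped widely.

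PKS4, MES16, AT4G27450, AT3G13061 and AT1G77880 completed the 8 of smallest p, with log2 changes between 1.37 for AT4G27450 and 1.82 for MES16. Of the 9 listed evening complex targets tested, 4 were called higher at 27 °C and 0 lower. Among the 4 targets near a site, LUX rose by 0.89 and PIF5 by 1.09 on the log2 scale, with edgeR adjusted p-values of 6.16e-05 and 8.54e-05. PIF4 and ELF4 were not called, with log2 changes of 0.68 and 0.22 and edgeR adjusted p-values of 0.0976 and 0.0556.

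Plastid genes were among the 8 of smallest p that fell. PSRP3/1, a plastid ribosome protein, had 56.1, 86.1 and 178 CPM at 27 °C and 98.2, 125 and 168 CPM at 22 °C, a log2 change of −0.65 (SE 0.08, edgeR adjusted p = 2.55e-06). HCF244, needed to make a photosystem II core protein, had 17.2, 23.7 and 35.5 CPM at 27 °C and 29.4, 35.4 and 40.9 CPM at 22 °C, a log2 change of −0.57 (SE 0.07, edgeR adjusted p = 7.64e-06). CHIL, which aids flavonoid synthesis, changed by −0.92, and ECT4, a reader of methylated RNA, by −0.75. Summed green tissue markers ranged from 14559 to 29392 CPM at 27 °C and 20507 to 35645 CPM at 22 °C, root markers from 0.543 to 123 CPM at 27 °C and 83.6 to 255 CPM at 22 °C, and their part in these calls was not tested.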

How the data were processed

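The sites and gene lists were chosen with earlier results of these data known. The deposited peak lists of 25 ChIP samples give the authors' fold enrichment ratio and −log10 p-values and −log10 q-values for each peak, called per sample. The submitters' processing notes name MACS2, Bowtie2, Trimmomatic, Picard and deepTools, with TAIR10 as the build; versions, any MACS2 control and the counting tool were not given in the sources used here. Coordinates count from 1. The deposited RNA counts (QuantSeq 3' libraries; the submitters' processing notes name STAR) are raw counts per locus; 4.84 to 38.9% of counts named no gene and were left out. Gene names and ends came from a RefSeq table of TAIR10.1, which matched 32548 of 32833 loci. It has no strand, so the planned rule by gene start was replaced by either gene end within 1000 bp of the summit. A gene named for a site therefore need not be the nearest to it.

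Counts were tested with edgeR 4.0.16 in R 4.3.3 (TMM, quasi-likelihood, Benjamini-Hochberg adjusted p) in 1 fit of 38 libraries with terms for 16 lines, temperature and 4 title numbers, leaving 17 residual degrees of freedom. DESeq2 1.42.0 was an alternative. Scripts were tested on simulated data. Named were the 10 strongest sites, every site near a listed gene, ELF3, ELF4, those listed genes and, per comparison, up to 8 called genes of smallest p per direction with a mean of at least 5 CPM, or the 3 of smallest p where fewer than 3 were called; of these the text gives a part. A few other genes, AT1G05097 and AT3G24830 among them, were named after their values were seen.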

Additional observations from a re-analysis of the deposited data

How the results depend on the processing

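The number of sites, 1241, was 665 when at least 50% of the shorter peak had to overlap, 27 among the 2000 strongest peaks of each list, 6 at a −log10 q of at least 5 and 263 with q under 0.05 in the first 17 °C replicate, and lay between 2383 and 6625 without replicate 1 or 2. The share of sites with an ELF4-ox 17C peak, 48.6%, was 37.5% by that overlap, 45.6% by summits within 200 bp and 0.322% among peaks of −log10 q of at least 5. The share over all peaks off INPUT, 32.2%, was 23.6%, 31.5% and 0.123% in the same settings.

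For elf3-1 against Col-0, 23 genes near the sites were called. There were 14 with gene ends within 500 bp, 15 with the nearest end only, 6 with no other shared peak, 10 for sites of q under 0.05, 37 with DESeq2 and 57 once the library of ELF3pro::BdELF3 at 27 °C and replicate 2 of BdELF3-ox at 27 °C, both low in root markers, were dropped, and 0 to 14 with 1 library left out. For elf3-1 X ELF4-ox against ELF4-ox, with 26, the numbers were 13 within 500 bp, 3 with no other shared peak, 8 for q under 0.05, 42 without those 2 libraries and 1 to 9 with 1 library left out. For elf4-2 against Col-0, with 0, they were 4 with DESeq2, 5 without the title number term and 5 without the 2 libraries. For elf4-2 X ELF3-ox against ELF3-ox, with 2, they were 0 within 500 bp, 1 by nearest end, 0 with no other shared peak, 1 for q under 0.05, 9 with DESeq2, 0 without the title number term, 6 without the 2 libraries and 0 to 1 with 1 library left out. For 27C against 22C, with 431, they were 250 within 500 bp, 258 by nearest end, 256 with no other shared peak, 93 for q under 0.05 and 63 in 4 lines only. Gene rules that keep fewer genes lower these counts by construction. Leaving out 1 library also lowered the calls over all genes in both elf3-1 comparisons and in elf4-2 X ELF3-ox against ELF3-ox. In elf3-1 against Col-0 that fall was only slight in at least 1 of the fits. Calls over all genes without the 2 libraries low in root markers are not given here. Apart from the gene rules, the cause of these changes was not tested. The splits by other shared peak and by q were chosen after seeing the data, as was the exchange of the 27 °C lists, which gave 1555 sites. Of the named genes, 16 log2 changes, none of them called in any setting, changed sign in at least 1 setting. With 1 library left out, the range in elf3-1 against Col-0 was −1.26 to 0.093 for AT1G31335, −0.53 to 2.22 for CDF1, −0.28 to 0.28 for HY5, −0.055 to 0.0998 for COP1, −0.64 to 0.36 for PUP10, −0.046 to 0.29 for ftsh3, −0.76 to 0.87 for AT2G36540, −0.23 to 0.22 for LOS2 and −0.37 to 0.055 for ECR1, and in elf3-1 X ELF4-ox against ELF4-ox it was −0.027 to 0.21 for COP1, −0.20 to 0.052 for PSBO1, −0.30 to 0.30 for AT1G72640, −0.33 to 0.18 for ftsh3, −0.18 to 0.27 for SPS2F, −1.90 to 0.76 for AT2G36540 and −0.33 to 0.016 for ECR1. COP1 was also at −0.0023 without the filter, and ftsh3 at −0.047 without the title number term, both in elf3-1 against Col-0. Title number and temperature, already terms of the fit, pair the libraries of 2 comparisons. With these pairs as a replicate block in a fit of 4 libraries, chosen after seeing the data, 71 instead of 26 genes near the sites were called in elf3-1 X ELF4-ox against ELF4-ox and 17 instead of 2 in elf4-2 X ELF3-ox against ELF3-ox. Calls over all genes in these fits are not given here, so the rise cannot be read as particular to genes near the sites. The labels do not say what the title number marks. The other comparisons of lines share 0 or 1 such pair. Searches for motifs and rules by gene start were not run.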

Other observations

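Further genes of photosynthesis and of cold and abscisic acid responses lay near the sites; they were picked after the sites were seen and were not tested as a group. Sites stood near FED A, a leaf ferredoxin gene (rank 273 at 17 °C, −log10 p 7.32), PSBX (rank 481, 6.01) and PSBR (rank 2009, 4.48), both photosystem II subunits, and LHCB6 (rank 4909, 3.61). FED A had 1143, 1791 and 2718 CPM as its lowest, median and highest level at 27 °C and 1744, 2313 and 2752 CPM at 22 °C, with a log2 change of −0.23 (SE 0.08, edgeR adjusted p = 0.035). It was the only one called of 7 such genes: the log2 change between 27 and 22 °C was −0.34 for PSBX (edgeR adjusted p = 0.0559), 0.05 for PSBR, −0.05 for LHCB6, −0.21 for LHCA3, 0.11 for PETE1 and −0.00 for PORB.

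COR413IM1, a cold-induced membrane protein gene, had 3 sites nearby, the strongest of rank 186 with a −log10 p of 8.80. ABF3, which encodes an abscisic acid transcription factor, had 2, of rank 232 and 4565. GolS3, a cold-induced galactinol synthase gene, had 2, of rank 179 and 24021, and its RNA did not exceed 0.660 CPM in any library, so its level could not be followed at this depth.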
